A study of Mus musculus with 9 samples.

Results

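The guanylate-binding proteins are a family of large interferon-inducible GTPases, and their transcripts were followed here in hearts of transgenic and non-transgenic mice. The family was represented by 10 genes, Gbp2, Gbp3, Gbp4, Gbp5, Gbp6, Gbp7, Gbp8, Gbp9, Gbp10 and Gbp11, which were taken by their gene names from the deposited tables and summed over their transcripts. They were 10 of the 41710 gene names in the tables, and all 10 passed the expression filter that left 15504 genes. The family was singled out with its values in these same comparisons already known, so that its own differences between groups are given as a description and without a test.

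The transcriptome was sequenced from hearts of male mice on the FVB/N background at an age of 8 months, with 3 libraries in each of 3 groups and 1 heart in each library. Tg-RKIP mice carry a transgene for RKIP (the Raf kinase inhibitor protein, encoded by Pebp1), which according to the study's text is expressed in the myocardium under the alpha-MHC promoter and is accompanied by symptoms of heart failure. Tg-GRK2 mice carry a transgene for the G-protein-coupled receptor kinase GRK2, whose promoter is not given in the sources used here. The control group, FVB, was non-transgenic and of the same sex, age and strain.

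The libraries held between 25458108 and 33447654 reads. Mitochondrial genes took 11.5% to 11.8% of the reads in Tg-RKIP hearts, 22.4% to 22.9% in Tg-GRK2 and 22.9% to 23.2% in FVB. Scaling to library size alone moved the median log2 fold change of all genes to 0.38 in both comparisons with Tg-RKIP, where the TMM scaling used here gave 0.0085 and 0.02. Reads of Pebp1 were 252196 to 321666 in Tg-RKIP and 7140 to 8446 in FVB. Reads of Grk2 were 1460 to 1765 in the libraries labelled Tg-GRK2 and 1302 to 1589 in FVB, and after TMM scaling Grk2 differed by 0.05 ± 0.04 (log2 fold change ± standard error), so that the transgene is not visible in the total count of this gene and these libraries are named here by their label. Cardiomyocyte markers such as Myh6 and Tnnt2 summed to 45860 to 48760 TPM in all 9 libraries. TPM is a level scaled to transcript length and to the sum of each library. In normalized counts, however, 7 of 8 were called lower in Tg-RKIP than in FVB, and in Tg-GRK2 3 were higher and 5 lower. With library size only, Myh6 was at −0.98 and Tnnt2 at 0.28 in Tg-RKIP against FVB (log2 fold changes).

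Guanylate-binding proteins belong to the dynamin superfamily of GTPases and assemble on membranes of pathogen-containing vacuoles and on cytosolic bacteria. They act in cell-autonomous immunity, in part by promoting the activation of inflammasomes. Their genes are classical targets of interferon gamma, whose receptor signals through the kinases JAK1 and JAK2 to transcription factors in the nucleus, and IRF1 acts as a further inducer. In a heart without infection they are expressed by endothelial cells, leukocytes and other cells at a basal level that depends on interferon signalling.

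The 10 genes lie in a pair of clusters in the GRCm39 build used for the deposited files. Gbp5, Gbp7, Gbp3 and Gbp2 follow each other on the plus strand of chromosome 3, from position 142199739 to 142343769. Gbp8, Gbp9, Gbp4, Gbp10, Gbp6 and Gbp11 lie on the minus strand of chromosome 5, from position 105162016 to 105494338. The promoters were read from RefSeq on GRCm38.p6, whose positions differ from those of GRCm39 and are not mixed with them. A promoter entry was present for 4 members, and Gbp4, Gbp6, Gbp8, Gbp9, Gbp10 and Gbp11 had none.

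The promoter stretches below are shown because the family is a target of interferon signalling. Capitals mark GAAA repeated after any 2 bases, searched on both strands and here read as TTTC, which resembles an interferon-stimulated response element, and to TTCNNNGAA, the letters of a gamma-activated sequence, which read the same on both strands. The stretches lie on the plus strand of GRCm38.p6 at chr3:142496684-142496900 (Gbp5), chr3:142530200-142530302 (Gbp7), chr3:142559969-142560024 (Gbp3) and chr3:142620574-142620623 (Gbp2).
Gbp5: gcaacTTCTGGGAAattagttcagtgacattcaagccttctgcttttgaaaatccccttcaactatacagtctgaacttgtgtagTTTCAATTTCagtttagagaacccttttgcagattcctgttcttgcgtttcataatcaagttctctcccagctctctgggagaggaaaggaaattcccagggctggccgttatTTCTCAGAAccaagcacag
Gbp7: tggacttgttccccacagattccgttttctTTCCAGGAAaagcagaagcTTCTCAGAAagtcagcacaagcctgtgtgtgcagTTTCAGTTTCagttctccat
Gbp3: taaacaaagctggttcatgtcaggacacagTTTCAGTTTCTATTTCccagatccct
Gbp2: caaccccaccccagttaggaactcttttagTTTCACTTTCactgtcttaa

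All 4 members with an entry held the GAAA repeat within 250 bases before an annotated start, which 3.0% of the 32851 RefSeq promoters of that length do. In Gbp7, Gbp3 and Gbp2 the match lay between 30 and 59 bases before the start, and in Gbp3, which has a pair of annotated starts, only 1 of its 2 windows held it, with 2 matches that overlap by TTTC. TTCNNNGAA was found in Gbp5 and Gbp7, 2 times each, and is present in 7.0% of all promoters of that length. These matches describe letters in a window and were not tested as binding sites.

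In FVB hearts the family summed to 94.2 ± 1.27 TPM (mean ± s.d., n = 3), of which Gbp2, a protein recruited to parasite vacuoles, gave 25.8%. Gbp9 followed with 12.2 ± 0.337 TPM, Gbp7 with 11.2 ± 0.314 TPM and Gbp10 with 10.9 ± 0.224 TPM. The order continued with Gbp3, Gbp5, Gbp4, Gbp6 and Gbp8, and Gbp11 was lowest, with 52 to 62 reads. Neighbours in this order overlapped in their libraries for Gbp7 and Gbp10, for Gbp3 and Gbp5, and for Gbp5 and Gbp4, whereas the other neighbours were apart. Gm43302, a row not among the 10 members, shares sequence with Gbp6 and Gbp10. It had 21.6 TPM in FVB, and summed with Gbp6 and Gbp10 37.4 TPM. The places of Gbp6 and Gbp10, the family sum and the share of Gbp2 thus depend on how reads were divided among these rows.

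The order was different in the transgenic hearts. Gbp2 and Gbp9 stayed first and second in each group, but Gbp2 took 42.6% of the family's TPM in Tg-RKIP and 30.3% in Tg-GRK2. Gbp10 moved from the fourth place in FVB to the eighth in Tg-RKIP, where its 1.59 ± 0.586 TPM overlapped with those of Gbp6 and Gbp11. This move, too, depends on how reads were divided with Gbp6 and Gm43302. In both transgenic groups Gbp8 had the lowest mean, with libraries that overlapped those of Gbp11, at 1.05 ± 0.130 (Tg-RKIP) and 0.919 ± 0.0243 TPM (Tg-GRK2). Such levels come from few reads, since Gbp8 had 29 to 55 reads in Tg-RKIP and 34 to 40 in Tg-GRK2, against 91 to 131 in FVB.

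**Figure D1:**
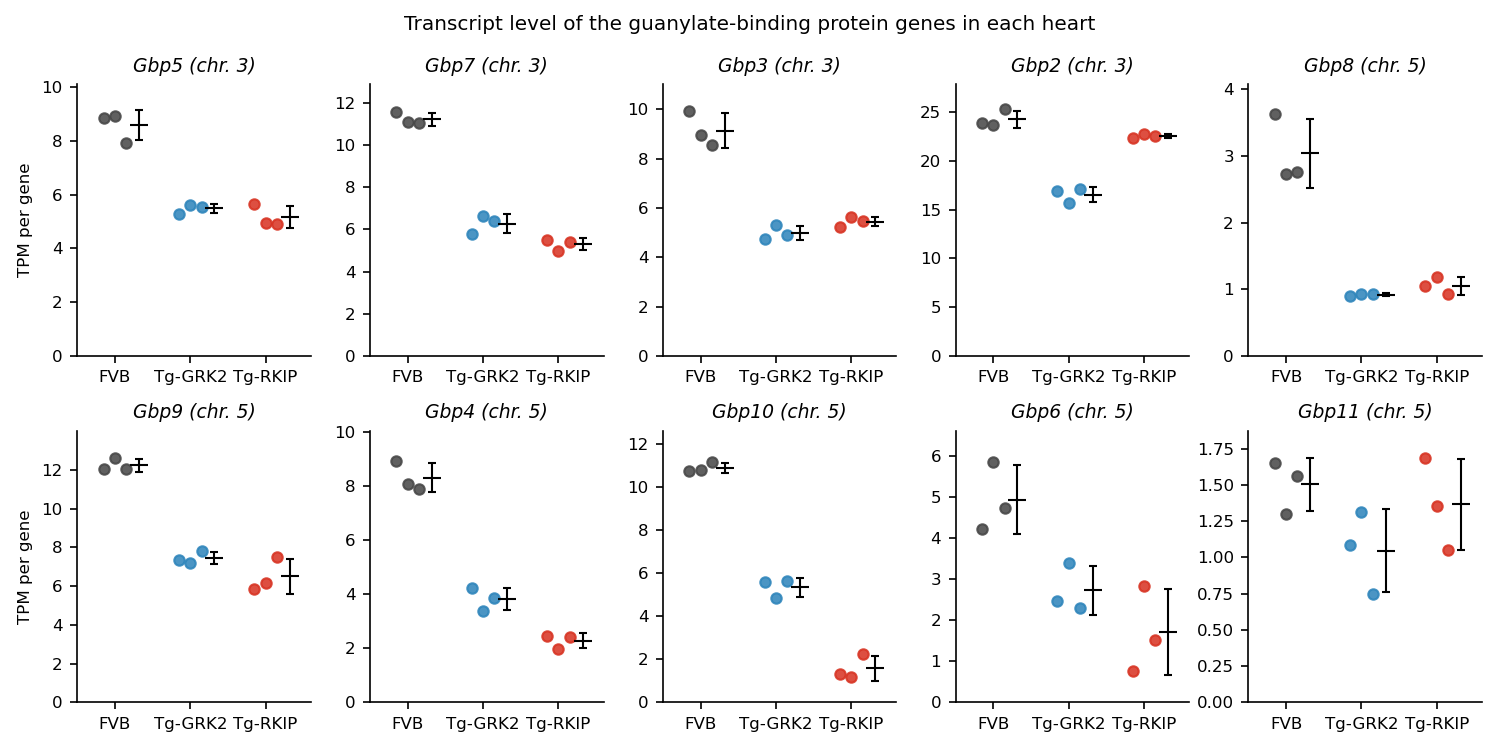
Level of each guanylate-binding protein gene in TPM in each of the 9 hearts, with FVB in grey, Tg-GRK2 in blue and Tg-RKIP in red, and the bar giving mean ± s.d. of 3 libraries. All transgenic hearts lie below all FVB hearts in 9 of the 10 genes, and Gbp11 is the gene in which the groups overlap. In normalized counts the members without overlap are also 9 in each comparison, beside 37.7% (Tg-RKIP) and 18.6% (Tg-GRK2) of all genes tested.

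The first comparison asked how the family differed between Tg-RKIP and FVB hearts. Gbp10 differed most as a single row, although with the rows that share its sequence it was at −2.23, next to Gbp4. Its Tg-RKIP hearts held 61, 71 and 112 reads and its FVB hearts 653, 694 and 638, which is 9.54% of the FVB level after TMM scaling. The groups were far apart, at −3.39 ± 0.13 on the log2 scale (all errors of fold changes are standard errors). In hearts measured in bulk, fewer cells of a type and less RNA per cell cannot be told apart. Gbp4, which is known to restrain the interferon regulatory factor IRF7, had 180, 191 and 181 reads against 699, 704 and 625, a log2 fold change of −2.25 ± 0.07. Its libraries were close to each other within each group.

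Gbp8 and Gbp6 followed with log2 fold changes of −1.93 ± 0.17 and −1.89 ± 0.22. For Gbp6 the Tg-RKIP libraries were uneven, with 54, 256 and 106 reads, while FVB had 321, 506 and 355. The groups still did not overlap, but the value was −1.56 without Tg-RKIP replicate 1 or −2.53 without replicate 2, and it depends on how reads are divided among overlapping genes, as described further below.

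Of the chromosome 3 members, Gbp7, which acts against intracellular bacteria and parasites, had the largest difference. Its reads were 518, 605 and 503 in Tg-RKIP and 1181, 1281 and 1110 in FVB, or 35.3% of the FVB level after scaling. Gbp5, which promotes inflammasome activation, and Gbp3 were alike in size, at −1.16 ± 0.07 and −1.15 ± 0.07. Gbp9 of the other cluster lay between them and Gbp6, at −1.40 ± 0.06.

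Gbp2, the most abundant member as a single row, differed least of those that separated. Its TPM were 22.4, 22.8 and 22.6 in Tg-RKIP and 23.9, 23.7 and 25.3 in FVB, which do not overlap but are close. In normalized counts the log2 fold change was −0.52 ± 0.04, but with scaling to library size it was −0.15 and on log2(TPM + 0.1) −0.10, so the size of its difference depended on the scaling. Gbp11 had 76, 79 and 47 reads in Tg-RKIP and 55, 52 and 62 in FVB, and the groups overlapped. Its log2 fold change of −0.12 ± 0.19 was smaller than its error and turned to 0.26 with scaling to library size, to 0.46 with the most abundant transcript and to 0.02 without Tg-RKIP replicate 3.

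Counted over the family, 9 of 10 members were past the threshold as lower in Tg-RKIP than in FVB (adjusted p under 0.05 over all genes, edgeR) and 0 as higher, whereas 37.1% of all genes tested were called lower and 73.9% in either direction. Since the genes were chosen on this contrast, nothing is read from that count. The median log2 fold change was −1.45 over the members and 0.0085 over all genes, with −1.16 for the chromosome 3 members and −1.91 for those of chromosome 5. Summed normalized counts of the family were 2674 ± 39.4 in Tg-RKIP and 6833 ± 87.6 in FVB, that is 39.1%. In TPM the sums were 53.0 ± 1.14 and 94.2 ± 1.27, that is 56.3%. With scaling to library size the members called lower were also 9, and the median became −1.08. The count was 8 with limma on log2(TPM + 0.1) or log2(TPM + 1), where Gbp2 was not called. It was also 8 with the most abundant transcript, where Gbp3 was not. Over all genes, 1947 and 1953 were called lower in these limma fits, and 4586 with the most abundant transcript. Calls over all genes shifted with library size only, from 5709 higher and 5751 lower to 9710 higher and 2649 lower. The median of the members stayed below that of all genes with both scalings.

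**Figure D2:**
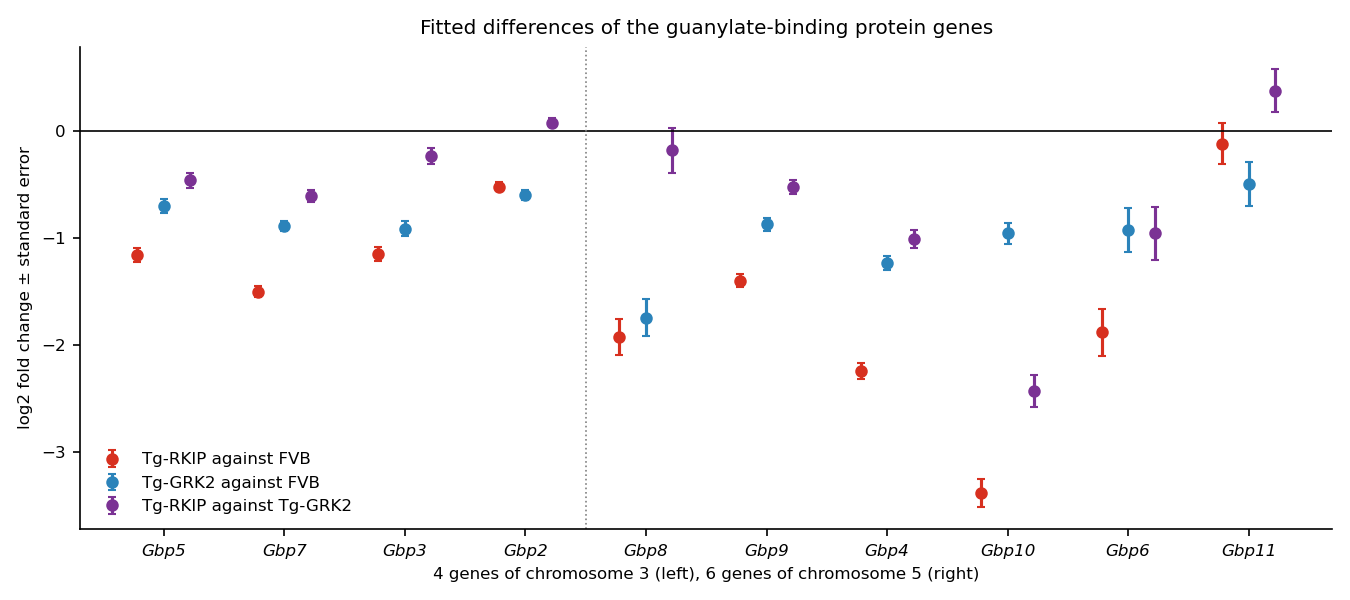
Log2 fold change ± standard error of TMM-normalized counts for each gene, with Tg-RKIP against FVB in red, Tg-GRK2 against FVB in blue and Tg-RKIP against Tg-GRK2 in purple. The values against FVB are below 0 in both groups, most in Gbp10 for Tg-RKIP (−3.39) and in Gbp8 for Tg-GRK2 (−1.75), although Gbp11 in Tg-RKIP is above 0 with scaling to library size. Between the transgenic groups Gbp3 and Gbp8 also change sign with that scaling.

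The second comparison set the libraries labelled Tg-GRK2 against the same FVB libraries. Gbp2 and Gbp11 were further below FVB here than in Tg-RKIP, and the other 8 members were nearer to it in normalized counts. Gbp8 differed most, with 38, 34 and 40 reads against 131, 131 and 91, a log2 fold change of −1.75 ± 0.17. Gbp4 followed at −1.24 ± 0.07, from 306, 279 and 336 reads against 699, 704 and 625. Its libraries in Tg-GRK2 lay between those of the other groups without overlap.

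Gbp10, Gbp6, Gbp3, Gbp7 and Gbp9 lay close together in this comparison, between −0.96 and −0.87. Gbp10 had 373, 295 and 426 reads here, about 51.5% of the FVB level, whereas it was the member farthest from FVB in Tg-RKIP. Gbp5 was at −0.70 ± 0.06. Gbp2 was at −0.60 ± 0.04, from 16.9, 15.7 and 17.1 TPM against 23.9, 23.7 and 25.3 in FVB, and here the gap was also clear in TPM. Gbp11, with 41, 49 and 38 reads, had −0.50 ± 0.21 and overlapped with FVB in normalized counts and in TPM.

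Of the members, 9 of 10 were called lower in Tg-GRK2 than in FVB and 0 higher, beside 12.2% of all genes called lower and 24.5% in either direction, and nothing is read from this count either. The median was −0.90 over the members and −0.0023 over all genes. The family summed to 3749 ± 108 normalized counts, 54.9% of FVB, and to 54.6 ± 0.551 TPM, 58.0% of FVB. Gbp6 was not past the threshold with DESeq2 or with limma on log2(TPM + 0.1), which call 8 members each. Without the filter limma called 7, Gbp10 being lost as well, and with the most abundant transcript 6 were called, without Gbp3, Gbp4 and Gbp6. Over all genes, too, fewer were called with limma or the most abundant transcript, as given further below. Both comparisons use the same 3 FVB libraries, so that a high or low FVB value would move the members alike in both. For this reason no correlation between them is given.

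The third comparison set the transgenic groups against each other, with the FVB libraries entering only the filter, the scaling and the estimate of the spread. Gbp10 had the largest difference, at −2.43 ± 0.15 (lower in Tg-RKIP), from 1.31, 1.19 and 2.26 TPM against 5.58, 4.84 and 5.63 TPM. Gbp4 was at −1.01 ± 0.08 and Gbp6 at −0.96 ± 0.25. Gbp7, Gbp9 and Gbp5 lay at −0.61, −0.53 and −0.46, and Gbp3 at −0.23 ± 0.08. Gbp8 was at −0.18 ± 0.21, a difference within its error.

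Gbp2 and Gbp11 went the other way in this comparison. Gbp2 was at 0.08 ± 0.04 in normalized counts, and in TPM the Tg-RKIP hearts (22.4 to 22.8) were all above the Tg-GRK2 hearts (15.7 to 17.1). Gbp11 was at 0.38 ± 0.20 with overlapping groups. In total, 7 of 10 members were called lower in Tg-RKIP and 0 higher, beside 36.6% of all genes called lower and 74.5% in either direction, and 7 lay lower without overlap in normalized counts, beside 37.4% of all genes. In TPM 3 members (Gbp4, Gbp7 and Gbp10) were lower in every Tg-RKIP heart than in every Tg-GRK2 heart. The share of all genes without overlap in TPM was not computed, so nothing is read from this number. On log2(TPM + 0.1) the median of all genes was 0.40 in this comparison. The counts of called members depended on the processing. With library size only, 5 members were called lower and 2 higher. With the most abundant transcript or limma on log2(TPM + 0.1) or log2(TPM + 1), 3 were called lower and 1 higher. For the latter settings no share of all genes is given here, and nothing is read from the counts. With library size only Gbp3 (0.13) and Gbp8 (0.18) changed sign, while calls over all genes went from 5874 higher and 5677 lower to 9608 and 2847.

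The sums over the clusters differed in this respect. The 4 members of chromosome 3 summed to 38.5 ± 0.238 TPM in Tg-RKIP, 33.3 ± 0.630 in Tg-GRK2 and 53.2 ± 0.859 in FVB. The 6 members of chromosome 5 summed to 14.5 ± 1.33, 21.3 ± 0.285 and 40.9 ± 0.684 TPM. In TPM the chromosome 3 sum was thus 116% of the Tg-GRK2 level in Tg-RKIP and the chromosome 5 sum 68.0%, while the whole family, at 53.0 ± 1.14 and 54.6 ± 0.551 TPM, was nearly the same in both. In normalized counts the ratios were 84.8% and 52.4%, so the chromosome 3 direction depends on the scale and the chromosome 5 direction does not. These sums lean on single genes. In TPM, Gbp2 stood at 22.6 in Tg-RKIP and 16.6 in Tg-GRK2. Gbp3, Gbp5 and Gbp7 stood at 5.45, 5.17 and 5.30 against 4.98, 5.49 and 6.27. On chromosome 5, Gbp10 stood at 1.59 against 5.35. Gbp4, Gbp6 and Gbp9 stood at 2.28, 1.71 and 6.5 against 3.83, 2.73 and 7.4, while Gbp8 and Gbp11 had higher means in Tg-RKIP.

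Gbp6 and Gbp10 cannot be fully separated in these data. Reads were 50 bases long, and of all windows of that length in the GENCODE M21 transcripts of Gbp10, 84.1% occur in another gene as well, and 73.3% of all its windows occur in Gbp6. For Gbp6 the share was 70.7%, and for the other members it was between 1.4% (Gbp5) and 19.2% (Gbp11). In addition, the row Gm43302 on the same strand consists of 1 transcript that spans from Gbp10 to Gbp6, and 72.1% of the Gbp10 windows recur in it. How the authors' program divided reads among these rows is not given in the sources used here.

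Summed over Gbp6, Gbp10 and Gm43302, the normalized counts were 672, 661 and 690 in Tg-RKIP, 1677, 1537 and 1665 in Tg-GRK2, and 3096, 3174 and 3189 in FVB. In Tg-RKIP the sum was more even than Gbp6 and Gbp10 alone, which varied by 60.9% and 42.6% (coefficients of variation). Its log2 fold change was −2.23 ± 0.04 for Tg-RKIP against FVB, −0.95 ± 0.03 for Tg-GRK2 against FVB and −1.27 ± 0.04 between the transgenic groups. This alternative was chosen after the data were seen. The value of −3.39 for Gbp10 alone is therefore larger than that of the locus.

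Within genes, too, reads moved between transcripts while the gene sum did not. Gbp3 had 290, 0 and 267 reads on transcript ENSMUST00000106222 in the 3 FVB libraries and 143, 463 and 131 on ENSMUST00000106221, whereas its sum was 478, 496 and 400. Gbp4 had 301, 0 and 0 reads on ENSMUST00000100962 and 388, 689 and 613 on ENSMUST00000196204, which is annotated as subject to nonsense-mediated decay, with a sum of 699, 704 and 625. In Tg-GRK2 the same pair had 289, 83 and 180 against 5, 195 and 146 reads. Such jumps between libraries of 1 group were as large as whole transcripts, and no difference between groups is drawn from single transcripts. Of the 37 transcripts listed for the members, 8 had no reads in any library.

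**Figure D3:**
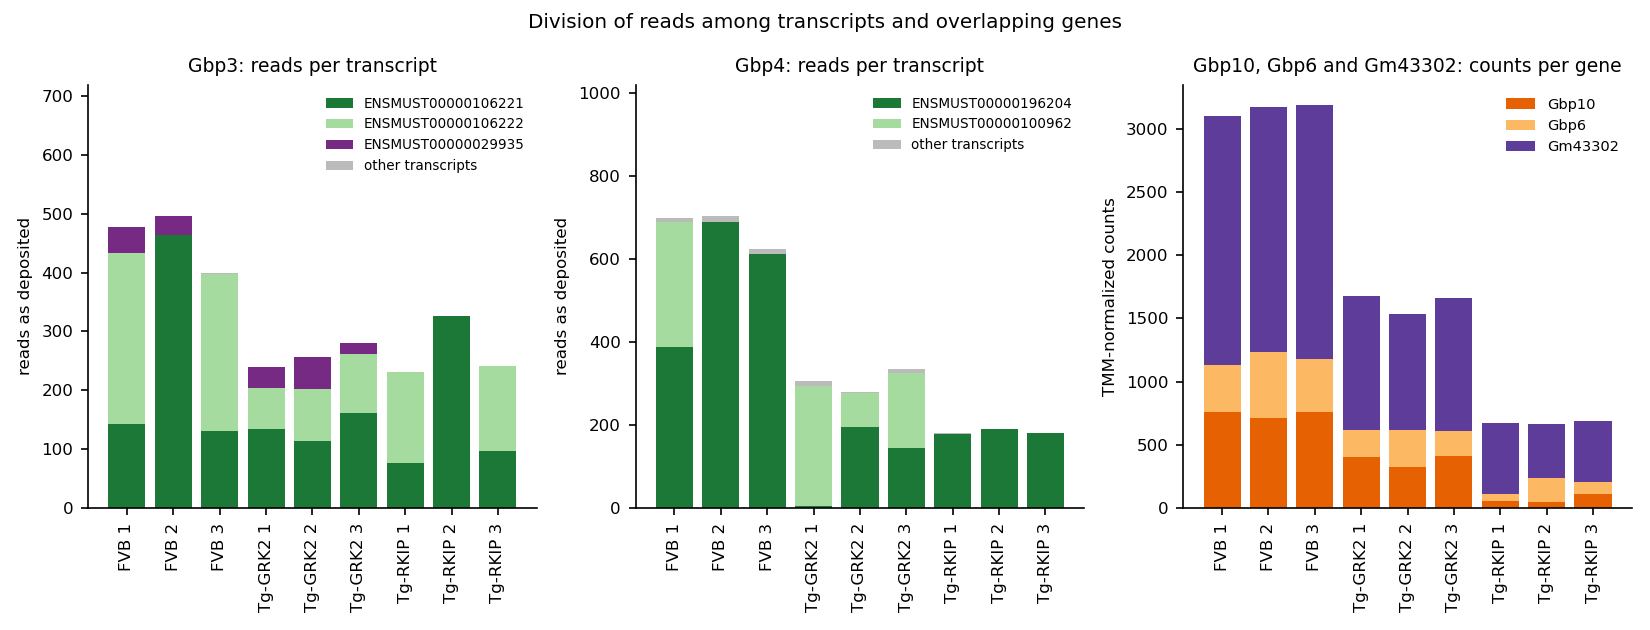
Reads per transcript of Gbp3 and Gbp4 (left and middle, as deposited) and TMM-normalized counts of Gbp10, Gbp6 and Gm43302 (right), stacked for each of the 9 libraries. The parts of a stack jump between libraries of a group, as in FVB where ENSMUST00000106222 of Gbp3 has 290, 0 and 267 reads, while the stacks of the transgenic groups are lower than those of FVB. In reads of Gbp3 the transgenic groups overlap.

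A further family row, Gbp2b, lies between Gbp3 and Gbp2 and is not among the 10 members. It had 34, 41 and 33 reads in Tg-RKIP, 29, 26 and 30 in Tg-GRK2 and 48, 46 and 56 in FVB. The transgenic libraries were all below those of FVB. The log2 fold changes against FVB were −0.84 ± 0.20 in Tg-RKIP and −0.92 ± 0.20 in Tg-GRK2. They rest on few reads and, like those of the members, are given as a description.

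Lists of other genes of the interferon pathway were then set beside the family. These lists, too, were chosen with earlier results of these data known, so the p-values of their genes are no independent evidence. The immunity-related GTPases (IRG), a further interferon-inducible family that acts with the guanylate-binding proteins on vacuoles, were lower in both transgenic groups for most genes. Of 14 tested, 11 were lower and 0 higher in Tg-RKIP than in FVB, and 11 were lower and 1 higher in Tg-GRK2 (Irgq at 0.19, named after its value was seen), with medians of −2.26 and −1.64. Their summed level was 65.0 to 67.0 TPM in Tg-RKIP, 64.7 to 66.5 TPM in Tg-GRK2 and 200 to 202 TPM in FVB. The sum in Tg-RKIP was 100.7% of that in Tg-GRK2 in TPM but 74.1% in normalized counts, and the family sum was at 97.0% and 71.3% on these scales.

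F830016B08Rik differed most among the IRG genes, with 15, 13 and 19 reads in Tg-RKIP, 196, 186 and 220 in Tg-GRK2 and 1081, 1215 and 1033 in FVB. Its log2 fold change was −6.50 ± 0.09 in Tg-RKIP (adjusted p = 1.55e-23) and −2.56 ± 0.06 in Tg-GRK2 (adjusted p = 1.28e-18) by edgeR. Iigp1, which attacks the vacuole of Toxoplasma, was at −2.86 ± 0.04 (adjusted p = 2.15e-24) and −2.29 ± 0.04 (adjusted p = 2.98e-21). The list was not uniform: 9930111J21Rik1, with 7, 18 and 7 reads in Tg-RKIP and 56 to 78 in FVB, had 98 to 112 in Tg-GRK2.

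Of the ligands, Ifng, the chief inducer of the family, had 0 to 4 reads in each of the 9 libraries and was not tested, and 6 genes of the list, Ifnb1 among them, had none. Il18, Il1b and Tnf were higher in Tg-RKIP than in FVB, and Il18 had a log2 fold change of 1.42 ± 0.25 (adjusted p = 2.89e-05, edgeR). The whole list summed to 6.68 to 8.26 TPM in Tg-RKIP and 2.42 to 3.34 in FVB. The 3 calls became 2 with DESeq2 and 1 with the most abundant transcript. They also became 2 without FVB replicate 1 or 2, Tg-RKIP replicate 2 or 3, or Tg-GRK2 replicate 1. None of these 3 genes passed in Tg-GRK2. Among 6 receptor genes Tg-RKIP had 2 higher and 2 lower (4 and 1 with library size only) and 1 was higher in Tg-GRK2. Ifngr1, which binds interferon gamma, was at 0.29 ± 0.03 in Tg-RKIP (adjusted p = 1.03e-07), and Ifngr2, which completes the receptor, at −0.53 ± 0.02 (adjusted p = 2.16e-15).

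Signalling genes downstream of the receptors were lower in part. Of 7 JAK and STAT pathway genes, 5 were lower and 0 higher in Tg-RKIP, and 4 were lower and 0 higher in Tg-GRK2. Jak1, a kinase bound to the interferon receptors, was at −0.84 ± 0.02 in Tg-RKIP (adjusted p = 6.52e-19) and −0.15 ± 0.02 in Tg-GRK2 (adjusted p = 1.68e-05) by edgeR. Scaling to library size left 4 lower and 2 higher in Tg-RKIP, and Irf9, at −0.44 ± 0.06 in normalized counts, was then at −0.06 and no longer called.

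Of 9 interferon regulatory factors and transactivators, Nlrc5, the transactivator of MHC class I genes, was at −2.10 ± 0.16 in Tg-RKIP (adjusted p = 8.32e-11) and −1.45 ± 0.15 in Tg-GRK2 (adjusted p = 2.3e-07). Irf1 was at −0.51 ± 0.04 in Tg-GRK2 (adjusted p = 1.95e-08). In Tg-RKIP it was at −0.19 ± 0.04 (adjusted p = 0.000393) in normalized counts but at 0.19 with library size only, where it was called higher. The list had 4 members higher and 2 lower in Tg-RKIP (6 and 1 with library size only), and 0 higher and 5 lower in Tg-GRK2.

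**Figure D4:**
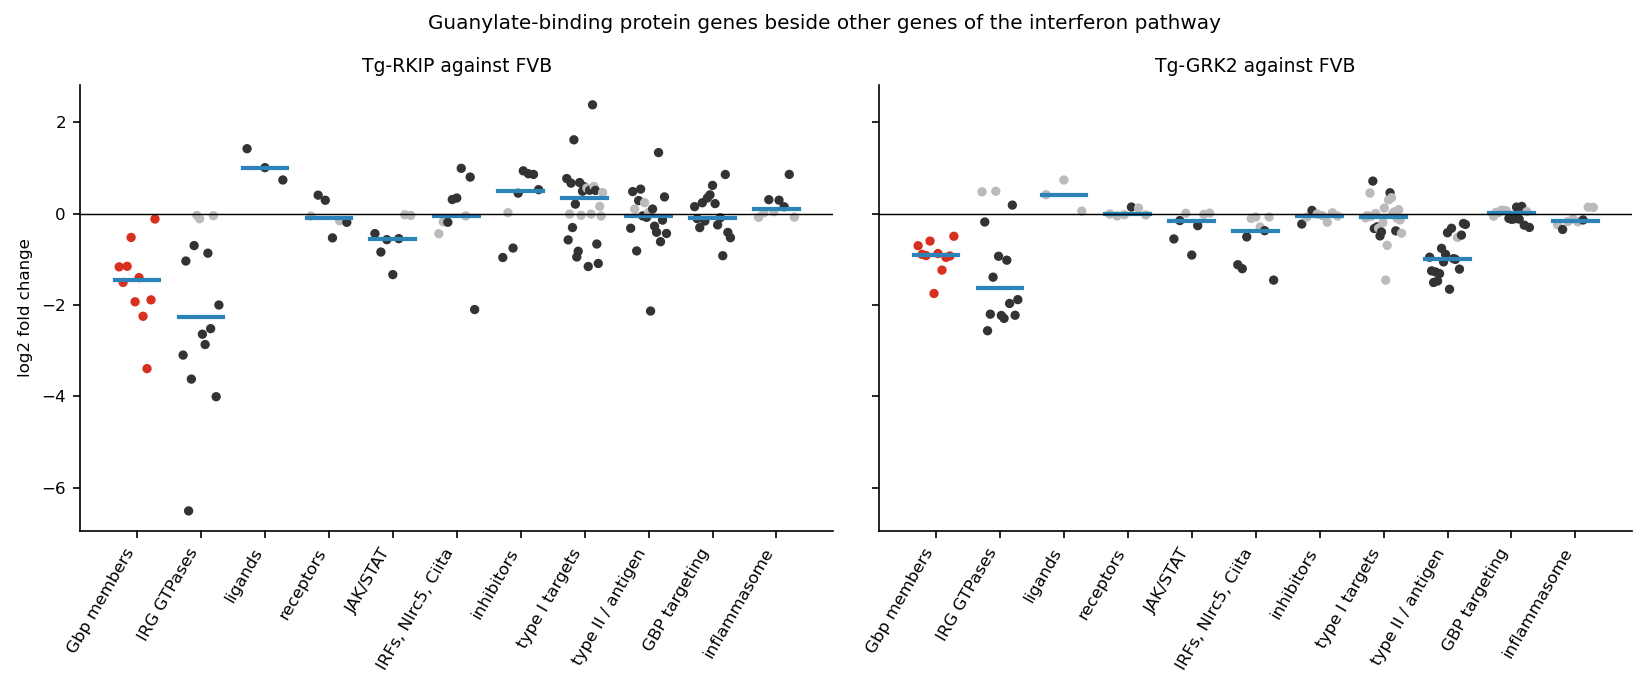
Log2 fold changes of TMM-normalized counts for the guanylate-binding protein genes (red) and for the tested genes of 10 lists of the interferon pathway, in Tg-RKIP (left) and Tg-GRK2 (right) against FVB. Dark points passed an adjusted p of 0.05 and blue bars are medians, which are lowest for the IRG GTPases (−2.26 and −1.64). With scaling to library size the genes called lower in Tg-RKIP over all lists are 26 in place of 47.

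Other groups of interferon targets held both directions in Tg-RKIP. Of 26 type I interferon targets, 11 were higher and 7 lower in Tg-RKIP, with a median of 0.34, and 2 were higher and 5 lower in Tg-GRK2. Ifi27l2a was at 1.62 ± 0.07 in Tg-RKIP (adjusted p = 7.68e-15), and Rsad2, an antiviral enzyme, at −1.09 ± 0.10 (adjusted p = 4.76e-09). With library size only the counts in Tg-RKIP were 18 higher and 5 lower.

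A list of interferon gamma targets, largely genes of antigen presentation but with others such as Cxcl9, separated the transgenic groups. In Tg-GRK2, 18 of 19 were lower than in FVB and 0 higher, with a median of −0.98. In Tg-RKIP, 6 were higher and 10 lower, and with library size only 12 were higher and 2 lower. H2-Aa, a chain of MHC class II, had 285 ± 4.80 TPM in Tg-RKIP, 60.6 ± 0.407 in Tg-GRK2 and 165 ± 6.63 in FVB. In the direct edgeR contrast H2-Aa was at 1.76 ± 0.03 (adjusted p = 2.55e-23), a direction opposite to that of Gbp10, Gbp4 and Gbp7 in the same contrast, and 16 of the 19 genes were higher in Tg-RKIP.

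Among 15 genes that act in the targeting of guanylate-binding proteins to membranes, largely autophagy genes, Tg-RKIP had 7 higher and 8 lower, and with library size only 11 and 1. In Tg-GRK2, 2 were higher and 6 lower. Of 8 inflammasome genes, which act downstream of the family, 4 were higher and 0 lower in Tg-RKIP, and 0 higher and 2 lower in Tg-GRK2. The 4 became 7 with library size only, 2 with DESeq2 or the most abundant transcript, 2 without FVB replicate 1 or Tg-RKIP replicate 1, and 1 without FVB replicate 2, and the 2 became 1 on leaving out any library except Tg-GRK2 replicate 3. Of 8 inhibitors of interferon signalling, 5 were higher and 2 lower in Tg-RKIP, among them Socs3 at 0.86 ± 0.11 (adjusted p = 5.73e-07, edgeR), and 1 was higher and 1 lower in Tg-GRK2. Over all lists, of 115 tested genes Tg-RKIP had 42 higher and 47 lower (70 and 26 with library size only), beside 36.8% and 37.1% of all genes tested, and Tg-GRK2 had 7 higher and 52 lower, beside 12.2% in each direction.

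Markers of cell types that can express the family are given beside it. Macrophage markers summed to 465 to 472 TPM in Tg-RKIP, 196 to 201 in Tg-GRK2 and 175 to 182 in FVB. Against FVB, 8 of 8 were higher in Tg-RKIP, and 4 were higher and 0 lower in Tg-GRK2. T and NK cell markers, from cells that produce interferon gamma, summed to 9.76 to 12.5, 2.55 to 3.24 and 3.84 to 4.28 TPM, with 7 of 8 tested higher in Tg-RKIP and 0 of 8 past the threshold in Tg-GRK2. Endothelial markers summed to 646 to 671, 364 to 374 and 360 to 361 TPM, with 5 of 8 higher and 3 lower in Tg-RKIP and 2 higher and 3 lower in Tg-GRK2. No defining marker of these lists was at 0 in all libraries.

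Other cell types also differed between the groups. Fibroblast markers summed to 2044 to 2052 TPM in Tg-RKIP, 965 to 979 in Tg-GRK2 and 891 to 916 in FVB, B and plasma cell markers to 27.8 to 30.0, 6.45 to 8.40 and 3.36 to 3.82 TPM, and adipocyte markers to 73.8 to 78.2, 19.5 to 21.6 and 8.50 to 10.1 TPM. Markers of airway epithelium summed to 91.6 to 96.8 TPM in Tg-RKIP and 191 to 201 in Tg-GRK2 but to 0.113 to 0.589 in FVB. The part of any of these in the values of the family was not tested.

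Across the 9 libraries, 9 members correlated with the mean of the others at a Pearson r of 0.83 (Gbp2) to 0.99 (Gbp7) on the scale of log2 CPM, and Gbp11 at 0.19. These libraries form 3 groups, and the values describe mainly the steps between groups. Among the 12491 other genes with a mean of at least 50 normalized counts, those most like the family mean included Zfp27 (0.997), Herpud1 (0.995), Wdr82, Parp14, Lrrc10, Cnbp, Akr1b3, Usp2 and Sar1a (0.99). Their log2 fold changes in Tg-RKIP against FVB were smaller than the family median, from −0.85 for Zfp27 to −0.19 for Akr1b3. Scaling to library size put Akr1b3, Cnbp, Sar1a and Wdr82 above 0, at 0.19, 0.09, 0.09 and 0.03. Zfp27, Parp14, Herpud1, Lrrc10 and Usp2 stayed below 0, at −0.47, −0.29, −0.24, −0.14 and −0.03. Parp14 belongs to the type I list.

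The neighbourhoods of both clusters were examined in the same fit, with neighbours between 31.4 and 3586 kb away. Of the 5 nearest tested genes on each side of the chromosome 3 cluster, 4 were higher and 3 lower in Tg-RKIP, and 0 higher and 3 lower in Tg-GRK2. The nearest, Kyat3, lies 63 kb away and was at −1.39 ± 0.05 in Tg-RKIP (adjusted p = 2.2e-16) but at −0.08 ± 0.04 in Tg-GRK2 (adjusted p = 0.227). Around the chromosome 5 cluster 5 were higher and 5 lower in Tg-RKIP, and 0 higher and 2 lower in Tg-GRK2. Of all genes tested, 36.8% were called higher and 37.1% lower in Tg-RKIP, and 12.2% in each direction in Tg-GRK2. Abcg3, 31.4 kb from Gbp8, was at 0.91 ± 0.35 in Tg-RKIP (adjusted p = 0.0238, edgeR), and Lrrc8b, 69.3 kb from Gbp11, at −0.24 ± 0.06 (adjusted p = 0.00132, edgeR). Scaling to library size moved the median of all genes in Tg-RKIP from 0.0085 to 0.38, a shift larger than the difference of Lrrc8b. The medians of these 20 neighbours were between −0.13 and 0.06 in the comparisons with FVB, and those of the members between −1.91 and −0.80. Since the members were chosen on these contrasts, nothing is read from this gap. Medians of the neighbours with other scalings were not computed.

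**Figure D5:**
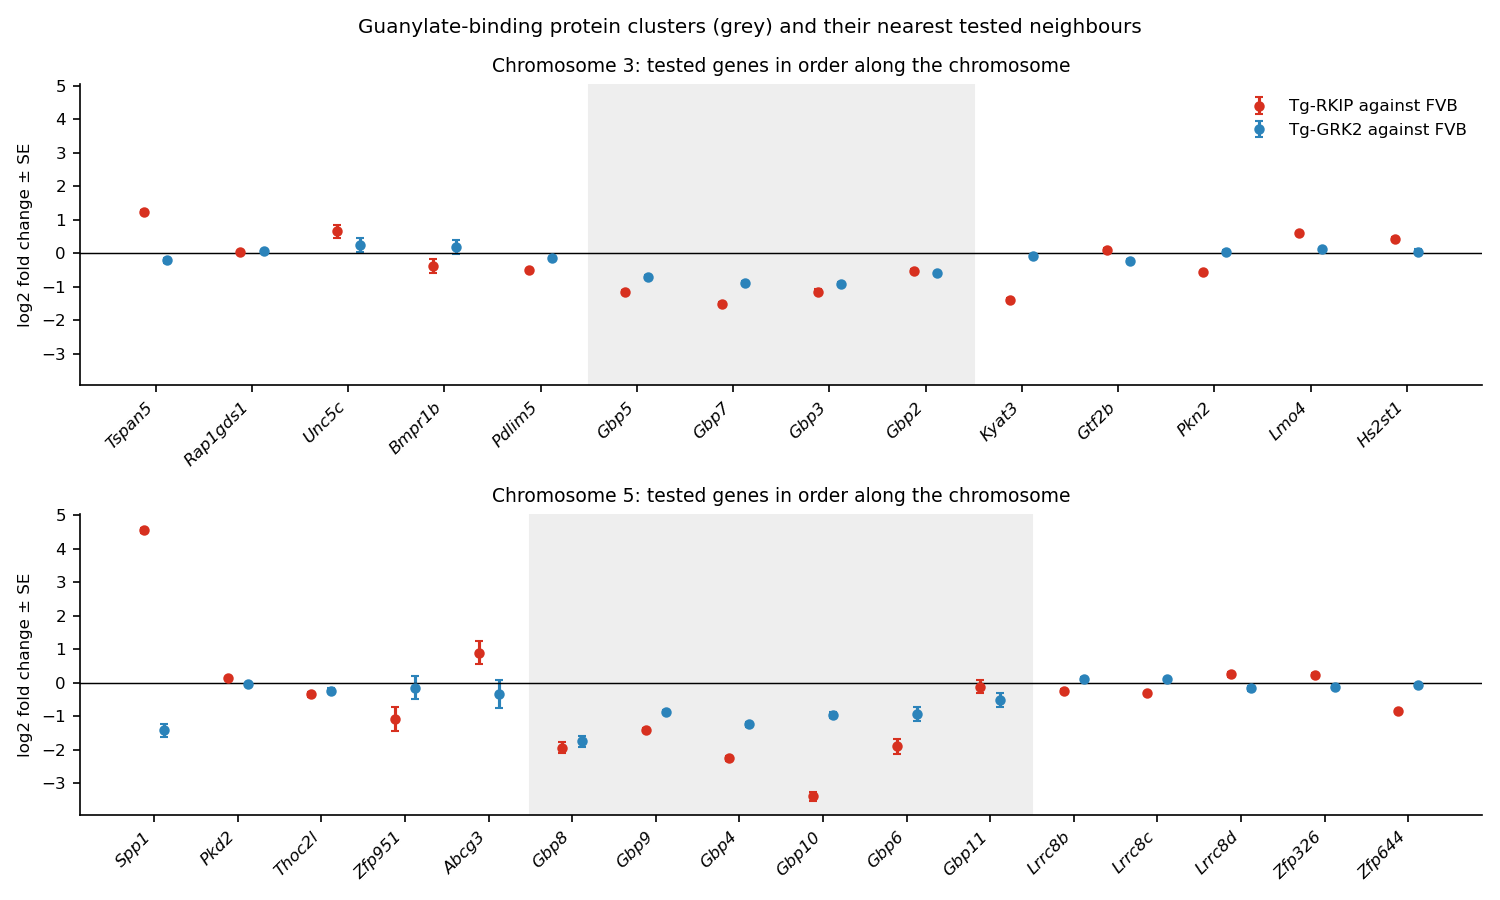
Log2 fold change ± standard error (SE) of TMM-normalized counts for the members (grey field) and the 5 nearest tested genes on each side, in their order along chromosomes 3 and 5, with Tg-RKIP against FVB in red and Tg-GRK2 against FVB in blue. Members lie below 0 in a row, with Gbp11 in Tg-RKIP (−0.12) near 0 and above it when scaled to library size, while their neighbours lie on both sides, up to 4.56 for Spp1 in Tg-RKIP. Gbp2b and Gm43302, which lie inside the clusters, are not drawn. The members were chosen with these contrasts known.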

How the data were processed

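RNA from 9 mouse hearts was sequenced by the authors as single reads of 50 bases (3 hearts per group), and the deposited files hold read counts per Ensembl transcript without normalization and, per library, TPM values that the authors calculated. The submitters' processing notes name the build GRCm39. The aligner and the counting program are not given in the sources used here. Recomputing TPM from deposited counts and transcript lengths gave the same values within 5.5e-06.

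Counts of 127558 transcripts were summed by gene name, with 25458108 to 33447654 reads per library. No gene name was blank. The number of libraries and the depth limit precision, and low genes such as Gbp8 and Gbp11 are the least precise. Genes were filtered with filterByExpr and tested in R 4.3.3 with edgeR 4.0.16 (TMM, glmQLFit and glmQLFTest with 1 mean per group over all 9 libraries, Benjamini-Hochberg adjustment over 15504 genes, threshold 0.05). Standard errors are the log2 fold change divided by the root of F. Normalized counts are TMM-scaled to the mean library. The script was tested on simulated counts. Alternatives were RLE factors, library size only, no filter, a replicate block, the compared groups only, each library left out in turn, the most abundant transcript, limma 3.58.1 on log2(TPM + 0.1) or log2(TPM + 1) with and without a filter of 1 TPM in 3 libraries, and DESeq2 1.42.0.

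The members and all gene lists were chosen with earlier results of these data known. All members were named. Of ligands, receptors, JAK and STAT genes, regulatory factors and inhibitors any tested gene could be named, and of the other lists the 4 with the largest change among those called with at least 50 normalized counts, besides the 10 most similar genes and 5 neighbours per side. Genes with near-identical copies, such as Tgtp1, are uncertain where reads could be divided between copies. RefSeq promoters are of GRCm38.p6. Shared windows were counted on both strands in GENCODE M21 transcripts. The labels do not say that animals were littermates or processed together, so p-values measure the spread between hearts only. No 2 libraries were identical. The values of 1 gene of the lists are not reported here.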

Additional observations from a re-analysis of the deposited data

How the results depend on the processing

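The median log2 fold change of the members in Tg-RKIP against FVB was −1.45 and moved to −1.08 with library size only, −1.31 with the most abundant transcript, −0.99 on log2(TPM + 0.1) with or without the filter, −0.89 on log2(TPM + 1) and −1.40 with Gbp6, Gbp10 and Gm43302 summed (chosen after seeing the data). It ranged from −1.47 to −1.41 when each library was left out. In Tg-GRK2 against FVB it was −0.90 and moved to −0.71 on log2(TPM + 1), with a range of −0.92 to −0.85. Between the transgenic groups it was −0.49 and became −0.13 with library size only, −0.10 with the most abundant transcript, −0.14 on log2(TPM + 0.1) with or without the filter and −0.13 on log2(TPM + 1), and leaving out each library gave −0.54 to −0.44, the latter without Tg-GRK2 replicate 3. In this comparison the sign of Gbp3 (−0.23) turned to 0.13 with library size only and on log2(TPM + 0.1) with or without the filter, and to 0.11 on log2(TPM + 1). Gbp4 (−1.01) and Gbp9 (−0.53) turned to 0.39 and 0.34 with the most abundant transcript, where reads jump between transcripts.

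Genes called in Tg-GRK2 against FVB were 3793 (1895 higher, 1898 lower), 1660 with the most abundant transcript, 2191 (1578 higher, 613 lower) on log2(TPM + 0.1), 2232 on log2(TPM + 1), 942 on log2(TPM + 0.1) without the filter and 3114 to 3773 with a library left out. Pathway genes called were 59, and 36, 37, 39 and 32 in the same order of settings, with 53 to 62 on leaving out a library. In the comparisons with Tg-RKIP the counts of called genes stayed within 1.5 times of the main count in all alternatives, with 11012 to 11570 (against FVB) and 11156 to 11658 (against Tg-GRK2) called when a library was left out, and 83 to 89 and 88 to 93 pathway genes.

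Replicate numbers did not pair the samples: deviations of same-numbered libraries correlated at −0.041 to 0.042 and 4 of 9 libraries were most like one of their own number. With a replicate block 11401, 3660 and 11491 genes were called in the 3 comparisons, and the members called lower were 9, 9 and 7 as without it. The low counts of Gbp8 and Gbp11 limit what can be said of them.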
